A study of Mus musculus with 8 samples.

Results

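Transcripts of 10 genes that mark astrocytes or carry out their uptake and recycling of glutamate were followed in the hippocampus of mice with and without the potassium channel Kv10.1. The genes were Slc1a2, Slc1a3, Glul, Gja1, Gjb6, Aqp4, Gfap, S100b, Aldh1l1 and Aldoc, chosen by name as known astrocyte genes, and each matched 1 of the 20985 probe sets by its platform symbol. The samples were 8 male mice aged 8 weeks, 4 Kv10.1 -/- knockout and 4 Kv10.1 +/+ wildtype, and each array carried RNA from the dissected hippocampus of 1 mouse. Kv10.1, also called Eag1, is encoded by Kcnh1, and the series was made to describe how mice without it behave and function. The sources used here do not give the strain, the deleted part of the gene or the place of its probes.

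Astrocytes clear glutamate from synapses through the transporters GLT-1 (Slc1a2) and GLAST (Slc1a3), and glutamine synthetase (Glul) turns it into glutamine that neurons take back. They are joined into a network by gap junctions built from the connexins of Gja1 and Gjb6, and their endfeet on blood vessels carry the water channel aquaporin-4 (Aqp4). Gfap encodes the intermediate filament of astrocytes, S100b a calcium-binding protein, Aldh1l1 a folate enzyme and Aldoc the brain aldolase of glycolysis. Gfap and Slc1a3 are also expressed by the neural stem cells of the dentate gyrus, and Glul and S100b by some oligodendrocytes.

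The sequences upstream of 4 of these genes are shown because they come up together in the results on variation between mice, Slc1a2 with Slc1a3 and Aldoc on one side and Gjb6 on the other. They were picked after the values were seen, and not by rank of correlation. Each line gives the 250 bases before an annotated start, 5′ to 3′ on the strand of the gene, from RefSeq on build GRCm38.p6, and Aldoc has 2 such starts. Capitals mark matches, on both strands, to 6 patterns. The core promoter patterns were the TATA box, searched as TATAAA, the CCAAT box by those letters, and the GC box, searched as GGGCGG. The patterns of factors active in astrocytes were the half-site of nuclear factor I, searched as TTGGCA, the site of STAT factors, searched as TTCNNNGAA, and that of SOX factors, searched as ACAATG.
Slc1a2 (chr2:102706188-102706437, plus strand): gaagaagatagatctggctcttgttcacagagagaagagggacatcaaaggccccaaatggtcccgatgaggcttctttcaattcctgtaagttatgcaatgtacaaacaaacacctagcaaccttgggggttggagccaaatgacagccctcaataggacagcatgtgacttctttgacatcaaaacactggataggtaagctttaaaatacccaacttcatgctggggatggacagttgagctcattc
Slc1a3 (chr15:8710808-8711057, minus strand): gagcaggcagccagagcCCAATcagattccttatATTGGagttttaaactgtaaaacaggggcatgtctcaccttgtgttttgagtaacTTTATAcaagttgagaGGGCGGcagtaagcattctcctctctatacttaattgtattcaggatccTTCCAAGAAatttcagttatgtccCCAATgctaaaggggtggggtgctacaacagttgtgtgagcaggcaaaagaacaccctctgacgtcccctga
Aldoc first start (chr11:78322823-78323072, plus strand): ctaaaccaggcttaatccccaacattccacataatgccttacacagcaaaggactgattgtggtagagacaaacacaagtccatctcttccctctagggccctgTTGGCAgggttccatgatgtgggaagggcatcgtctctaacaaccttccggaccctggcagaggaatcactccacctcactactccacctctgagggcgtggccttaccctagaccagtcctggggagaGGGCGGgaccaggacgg
Aldoc second start (chr11:78323948-78324197, plus strand): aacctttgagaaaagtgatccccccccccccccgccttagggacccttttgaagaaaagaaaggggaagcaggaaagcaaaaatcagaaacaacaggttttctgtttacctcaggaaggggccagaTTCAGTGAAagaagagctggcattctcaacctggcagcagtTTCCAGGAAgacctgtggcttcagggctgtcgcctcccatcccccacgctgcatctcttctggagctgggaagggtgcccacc
Gjb6 (chr14:57133612-57133861, minus strand): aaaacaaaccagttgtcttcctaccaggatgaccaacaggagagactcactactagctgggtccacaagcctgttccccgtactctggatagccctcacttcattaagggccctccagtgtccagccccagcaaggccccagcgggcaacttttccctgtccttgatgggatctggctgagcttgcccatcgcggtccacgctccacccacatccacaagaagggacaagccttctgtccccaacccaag

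The window of Slc1a3 held 3 CCAAT matches, 1 TATA match on the other strand, 1 GC box and 1 STAT match, while those of Slc1a2 and Gjb6 held none of the 6 patterns. Aldoc had a nuclear factor I half-site and a GC box before its first start and 2 STAT matches before the second. The CCAAT and nuclear factor I matches overlap in S100b, where TTGGCA begins inside an ATTGG. Over the 9 of 10 genes with a window, STAT matches were found in 2 (Slc1a3 and Aldoc) and nuclear factor I half-sites in 2 (Aldoc and S100b), against 7.02% and 12.3% of the 32851 windows in the table. CCAAT was found in 4 of the 9 genes and GGGCGG in 4, against 33.8% and 32.7% of windows, TATAAA in 1 against 12.4%, and ACAATG in 0 against 10.7%. The GC content of the window was 44.8% for Slc1a2 and for Slc1a3, 55.2% and 54.0% for the 2 starts of Aldoc, and 56.8% for Gjb6. The median over all windows was 52.4%. Genes were counted over any of their starts and the comparison over single windows, so these shares are in unlike units and were not tested. The matches describe letters and show no binding.

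Kcnh1 checked the labels. Its log2 level averaged 8.35 ± 0.0624 over the 4 knockouts and 9.34 ± 0.131 over the 4 wildtype mice (SD), which differ by -0.99 ± 0.081 (SE; limma adjusted p = 0.00319). It was the 1 probe set of 20985 past an adjusted p of 0.05 (0.00477%). A pair of arrays stood apart. On the first principal component of all probe sets, which held 44.2% of the variance, knockout 1 scored 14.9 and wildtype 1 scored 32.0, while the other 6 arrays lay between -15.9 and 0.813. The same arrays had the widest interquartile ranges of log2 level, 2.30 for knockout 1 and 2.42 for wildtype 1, against 2.09 to 2.21. Mice also fall into a lower run of identification numbers (knockout 1 with wildtype 1, 2 and 3) and a higher run (knockout 2, 3 and 4 with wildtype 4), so number run and genotype are largely confounded. Of 10 dentate granule neuron markers, 8 lay above their array's median on all 8 arrays, as did 15 of 15 general neuron markers.

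Astrocyte transcripts gave strong signals in both genotypes. All 10 genes lay above the median probe set on every array, and 8 lay above the upper quartile, a log2 level of 8.73 to 8.88, on every array. The exceptions were S100b and Aldh1l1, each above the quartile on 4 of 8 arrays. Levels of different probe sets are not ranked against each other here, because probes differ in how brightly they bind. In whole hippocampus, fewer astrocytes and less RNA per astrocyte cannot be told apart.

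None of the 10 genes differed between the genotypes by the test over all probe sets, and the groups overlapped for each of them (0 of 10 free of overlap, against 2.16% of all probe sets, 0.967% higher in knockouts and 1.19% lower). The limma adjusted p was 0.997 for each, and 0 of 10 had even an unadjusted p under 0.05, against 3.16% of all probe sets (1.63% higher in knockouts and 1.53% lower). Knockout minus wildtype was positive for 5 genes and negative for 5, with a median of 0.00375 log2 units beside -0.0025 for all probe sets. The 95% intervals of the 10 folds together spanned 0.728 to 1.39, so a larger difference lies outside the interval of every gene. A p that misses the threshold does not show equal levels.

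**Figure D1:**
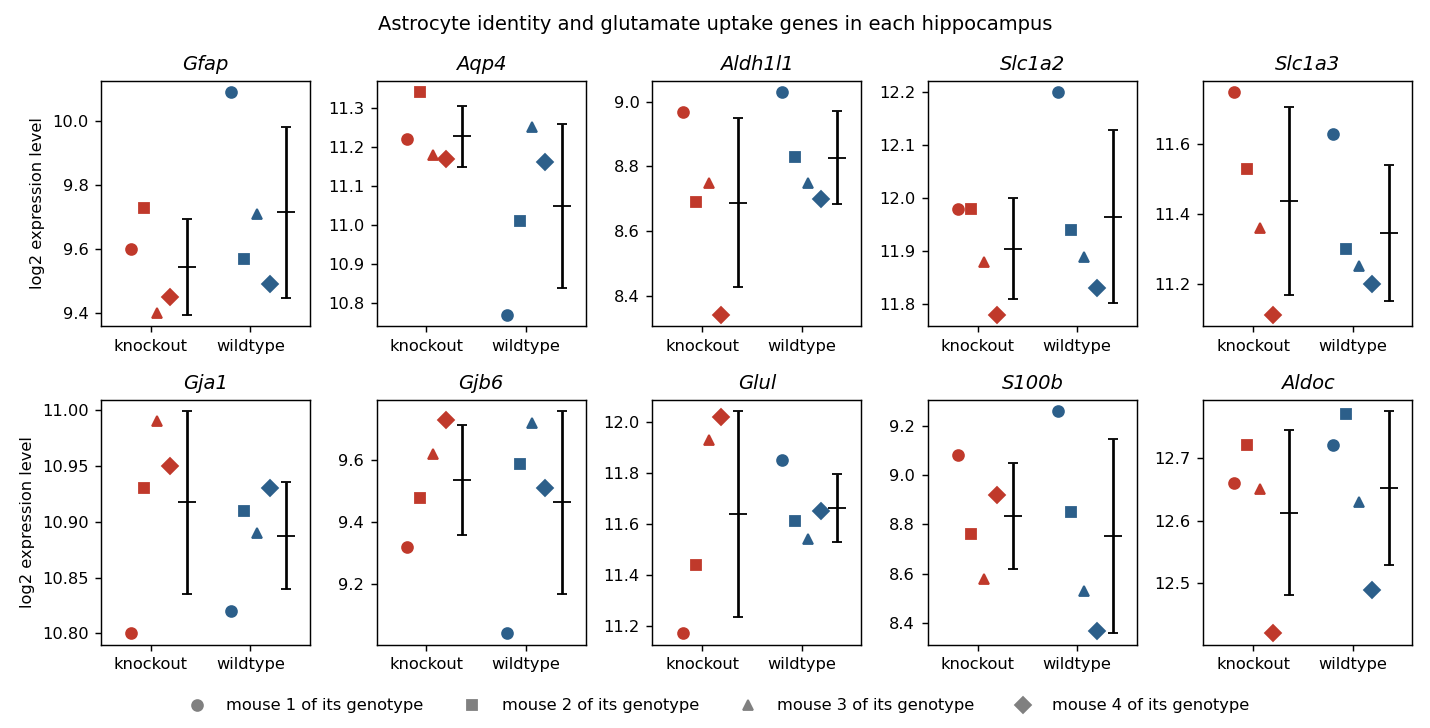
Log2 expression level (vertical axes, scaled per gene) of the 10 genes in each mouse, 4 knockout (red, left) and 4 wildtype (blue, right). Symbols mark the mouse within its genotype and black bars the mean ± SD. The groups overlap for all 10 genes, and wildtype 1 (blue circle) is the highest array for Gfap, Slc1a2, Aldh1l1 and S100b and the lowest for Aqp4 and Gjb6.

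Neither glutamate transporter of astrocytes passed the test over all probe sets. Slc1a2, whose GLT-1 protein carries most glutamate uptake in the forebrain, read 11.98, 11.98, 11.88 and 11.78 in knockout 1 to 4, against 12.20, 11.94, 11.89 and 11.83 in wildtype 1 to 4. Wildtype 1 lay above all others and the remaining mice were interleaved. The difference of -0.06 ± 0.0929 (SE) had a 95% interval from -0.27 to 0.15, and it was 0.0183 without wildtype 1. Slc1a3, the gene of GLAST, read 11.75, 11.53, 11.36 and 11.11 in knockouts and 11.63, 11.30, 11.25 and 11.20 in wildtype mice. Its knockout values ran wider than its wildtype values, and both the highest and the lowest array were knockouts. The difference was 0.0925 ± 0.139 (SE; 95% interval -0.22 to 0.40), or 0.19 without wildtype 1 and -0.0117 without knockout 1. Over the 18 alternative fits the Slc1a3 difference ran from -0.0117 to 0.245.

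Glutamine synthetase was the most uneven of the uptake genes. Glul read 11.17, 11.44, 11.93 and 12.02 in knockout 1 to 4, against 11.85, 11.61, 11.54 and 11.65 in wildtype 1 to 4. The knockouts lay on both sides of the wildtype mice, with an SD of 0.404 in knockouts and 0.133 in wildtype mice (n = 4 each). The difference was -0.0225 ± 0.172 (SE; 95% interval -0.40 to 0.36). It was 0.13 without knockout 1 and 0.20 without both arrays that stand apart.

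The gap junction genes differed in how tightly they were held. Gja1, the main astrocyte connexin, read 10.80, 10.93, 10.99 and 10.95 in knockouts and 10.82, 10.91, 10.89 and 10.93 in wildtype mice. All 8 mice fell within 0.19 log2 units, and the difference of 0.03 ± 0.0694 (SE) had an interval from -0.12 to 0.18, the narrowest of the 10. Gjb6, the second astrocyte connexin, read 9.32, 9.48, 9.62 and 9.73 in knockouts, against 9.04, 9.59, 9.72 and 9.51 in wildtype mice. Wildtype 1 was the lowest and knockout 1 the next, and the difference was 0.0725 ± 0.144 (SE; 95% interval -0.25 to 0.39), or -0.0692 without wildtype 1.

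Aqp4 had the largest positive difference of the 10 genes. Levels of this endfoot water channel were 11.22, 11.34, 11.18 and 11.17 in knockouts and 10.77, 11.01, 11.25 and 11.16 in wildtype mice. The knockouts sat close together at the upper end of the wildtype range, and wildtype 1 was the lowest. The difference of 0.18 ± 0.103 (SE; 95% interval -0.049 to 0.41) was 0.0875 without wildtype 1 and 0.25 without wildtype 3. In that last setting Aqp4 had an unadjusted p under 0.05, with a limma adjusted p of 0.995.

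Gfap had the largest negative difference. It read 9.60, 9.73, 9.40 and 9.45 in knockouts and 10.09, 9.57, 9.71 and 9.49 in wildtype mice, with wildtype 1 highest and the others interleaved. The difference was -0.17 ± 0.130 (SE; 95% interval -0.46 to 0.12), and -0.045 without wildtype 1. S100b had the widest interval of the 10. Its levels were 9.08, 8.76, 8.58 and 8.92 in knockouts and 9.26, 8.85, 8.53 and 8.37 in wildtype mice, the wildtype mice reaching beyond the knockouts at both ends. This gave a difference of 0.0825 ± 0.179 (SE; 95% interval -0.31 to 0.48), or 0.25 without wildtype 1 and -0.045 without wildtype 4. Over the 18 alternative fits the S100b difference ran from -0.045 to 0.29.

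The metabolic enzymes overlapped as well. Aldh1l1 read 8.97, 8.69, 8.75 and 8.34 in knockouts, against 9.03, 8.83, 8.75 and 8.70 in wildtype mice. Knockout 4 lay below the rest, and the difference was -0.14 ± 0.128 (SE; 95% interval -0.42 to 0.14), or -0.0242 without that mouse and -0.23 without knockout 1. With the run of mouse numbers as a block it was -0.0033. Aldoc read 12.66, 12.72, 12.65 and 12.42 in knockouts and 12.72, 12.77, 12.63 and 12.49 in wildtype mice. Mouse 4 was the lowest of each genotype, and the difference was -0.04 ± 0.0904 (SE; 95% interval -0.24 to 0.16).

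Within the lower run of mouse numbers (1 knockout, 3 wildtype) and the higher run (3 knockout, 1 wildtype) the difference had opposite signs for 7 of the 10 genes. It kept a positive sign in both runs for Slc1a3 (0.36 and 0.13), S100b (0.20 and 0.38) and Aqp4 (0.21 and 0.07). Glul differed by -0.50 in the lower run and 0.15 in the higher. Each run has 1 mouse of one genotype, so these values have no test. Both arrays that stand apart, knockout 1 and wildtype 1, fall in the lower run, where knockout 1 is the only knockout. A contrast between the runs therefore cannot be told apart from those arrays.

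**Figure D2:**
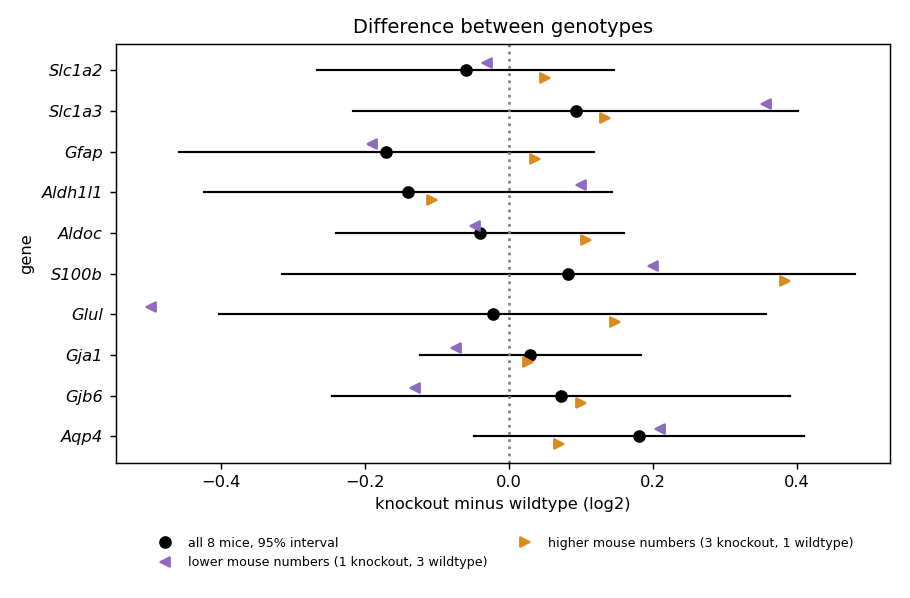
Knockout minus wildtype in log2 units (horizontal axis) for each gene. Black points with lines give all 8 mice with the 95% interval of limma, and triangles give the same difference within the lower and the higher run of mouse numbers. Every interval crosses 0, and the triangles fall on opposite sides of 0 for 7 genes.

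Most of the genes varied between mice of 1 genotype more than the median probe set did. The pooled within-genotype SD was 0.316 for S100b and 0.301 for Glul, which placed them at percentiles 96.2 and 95.4 of all probe sets, and 8 of the 10 genes exceeded the median SD of 0.132. Gjb6 (SD 0.244), Slc1a3 (0.236), Gfap (0.216) and Aldh1l1 (0.211) came next, and Aqp4 (0.158) and Slc1a2 (0.134) lay nearer the median. Aldoc (0.128) lay just under it. Gja1 was well under it at 0.0673, percentile 7.95. SDs were compared over 6 degrees of freedom per probe set, and no test was made of their order. The comparison was with probe sets of all levels, dim ones included. Without wildtype 1, the number of the 10 genes above the median SD was 7.

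The 10 genes did not vary as 1 block. Over the 8 arrays, Slc1a2, Slc1a3, Gfap, Aldh1l1, Aldoc and S100b correlated positively with each other in 15 of 15 pairs (Pearson r from 0.34 to 0.90, median 0.63). Gja1, Gjb6 and Aqp4 did so in 3 of 3 pairs (r from 0.39 to 0.73). Between these sets all 18 pairs were negative (r from -0.89 to -0.18, median -0.67). Glul went with neither, with r from -0.57 to 0.56. These sets were drawn after the values were seen and have no test.

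Of the 45 pairs, 13 (28.9%) reached r of 0.7 in size, against 14.3% of all pairs of probe sets above the median level. No pair passed after adjustment over the 45 pairs (smallest adjusted p = 0.157 for Pearson and 0.196 for Spearman, exact two-sided permutation over 40320 orders of the arrays), and 13 had an unadjusted Pearson p under 0.05. Slc1a2 and Gjb6 had r = -0.89 (rho = -0.83; exact permutation p = 0.0057 and 0.0167), or -0.53 without the 2 arrays farthest from the median of Slc1a2. Gfap and Slc1a2 had r = 0.90 (rho = 0.84; exact permutation p = 0.00734 and 0.0131), or 0.73 without the 2 arrays farthest for Gfap. For Slc1a2 and Slc1a3, r was 0.78 (rho = 0.89; exact permutation p = 0.0146 and 0.00605), and 0.82 without the 2 farthest. Subtracting the mean of each genotype kept the sign of all 45 pairs. Without the 2 arrays farthest from the median of the first gene of each pair, 30 of the 45 kept their sign. These were 13 of 15 within the 6 genes, 0 of 3 within Gja1, Gjb6 and Aqp4, 9 of 18 between the sets and 8 of 9 with Glul.

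Wildtype 1 carried much of the division. Without it the median r was 0.52 within the 6 genes, -0.34 between the sets and -0.10 within Gja1, Gjb6 and Aqp4, and Aqp4 then had r = 0.52 with Gfap in place of -0.57. Without knockout 1 as well, 35 of the 45 pairs kept their sign. The glutamate transporters kept theirs, with r = 0.86 for Slc1a2 and Slc1a3 without wildtype 1 and 0.89 without both, as did Slc1a2 and Aldoc (0.71 over all arrays, 0.88 and 0.94). Glul and Gja1 had r = 0.56 over all arrays, 0.86 without wildtype 1 and 0.73 without both. These pairs were named after their values were seen.

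**Figure D3:**
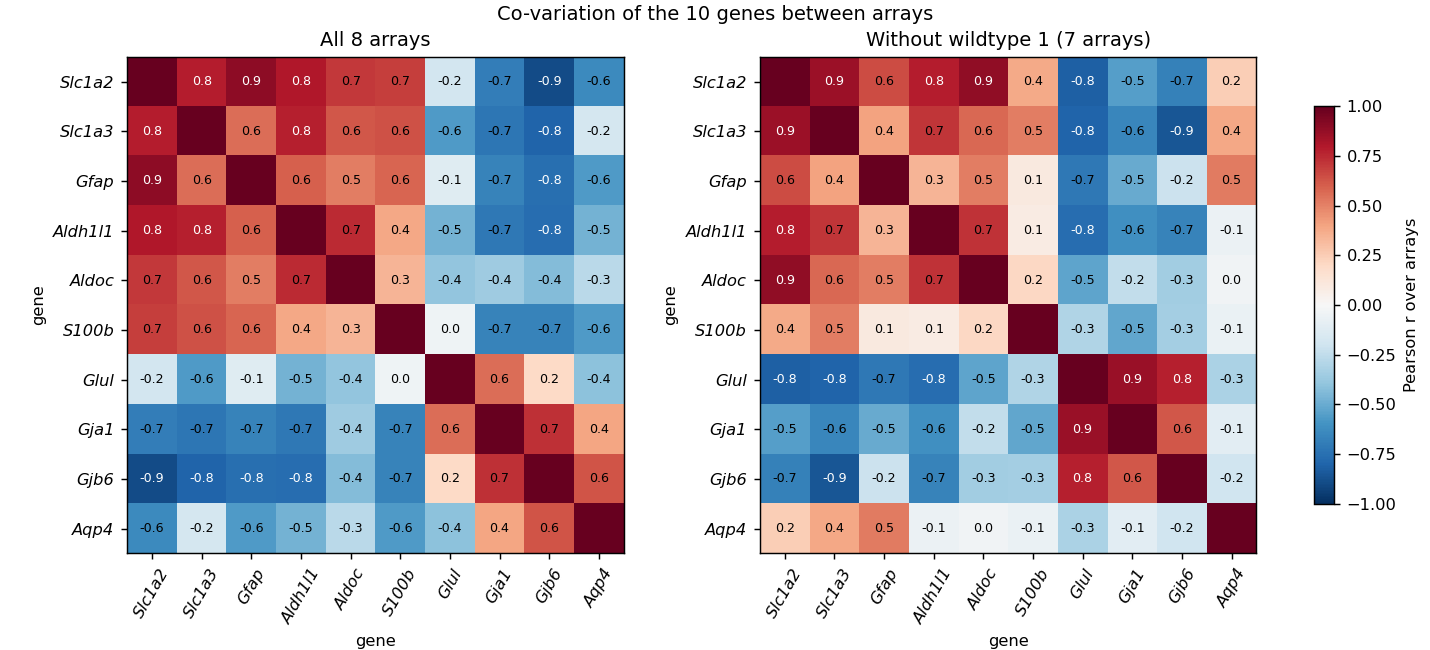
Pearson r between each pair of the 10 genes over all 8 arrays (left) and over 7 arrays without wildtype 1 (right), red for positive and blue for negative, with the value in each cell. The left panel shows 6 genes that go together and against Gjb6, Gja1 and Aqp4, and in the right panel Aqp4 no longer goes with the other 2 and Glul joins Gja1 and Gjb6.

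The division followed the first principal component, the axis on which knockout 1 and wildtype 1 stand apart. The size of r with that component was at least 0.7 for 7 of the 10 genes, against 31.5% of all probe sets and 36.1% of those above the median level, where all 10 lie. Slc1a2 had r = 0.95 (rho = 0.99) and Gfap 0.87, while Gjb6 had -0.91 and Gja1 -0.86. Aqp4 had r = -0.59 and rho = -0.0238, and Glul r = -0.31. The mean of the 6 genes, as log2 level minus the mean over arrays, was 0.15 in knockout 1 and 0.045, -0.0867 and -0.19 in knockout 2, 3 and 4, against 0.30 in wildtype 1 and 0.02, -0.0633 and -0.18 in wildtype 2, 3 and 4. The mean of Gja1, Gjb6 and Aqp4 was -0.0671 in knockout 1 and 0.0696 to 0.10 in the other knockouts, against -0.30 in wildtype 1 and -0.0104 to 0.11 in the other wildtype mice. With the component regressed out, the median r was -0.0596 within the 6 genes and 0.0084 between the sets. In that setting r was -0.0864 for Slc1a2 and Slc1a3, 0.60 for Slc1a2 and Aldoc and 0.61 for Glul and Gja1. Of the 45 pairs, 20 kept their sign. The component is computed from all probe sets, these 10 included, so its correlations carry no p. Its source was not tested.

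**Figure D4:**
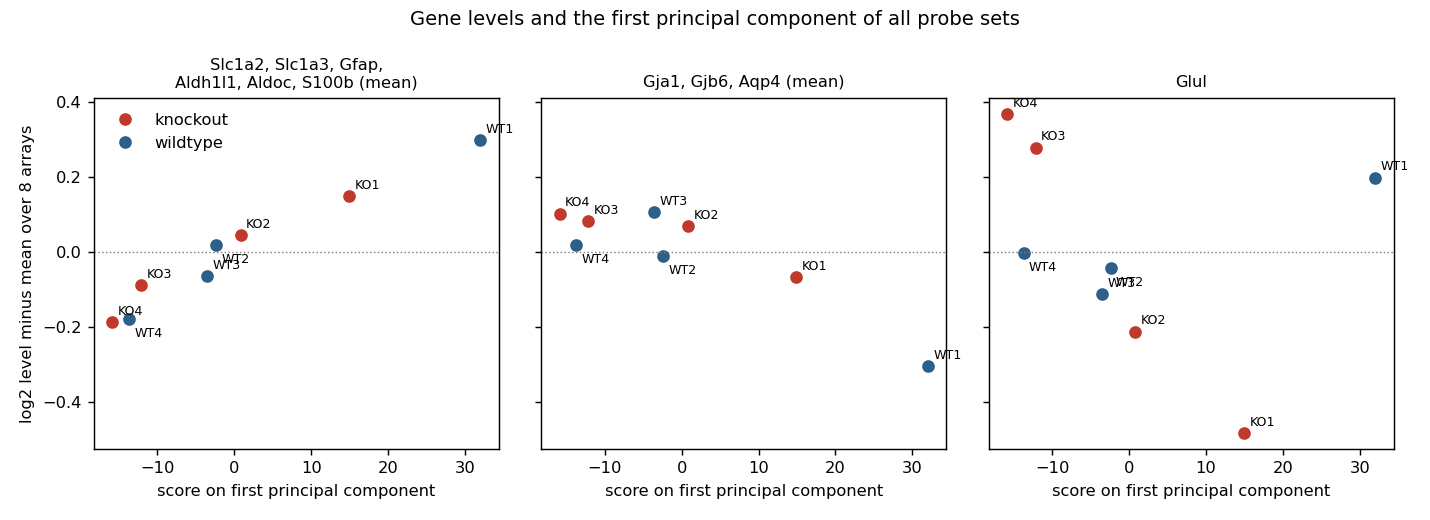
Log2 level minus the mean over 8 arrays (vertical axis) for the mean of 6 genes, the mean of Gja1, Gjb6 and Aqp4, and Glul, against the score of each array on the first principal component of all probe sets (horizontal axis, no unit). KO and WT with a number name the mouse. The 6-gene mean climbs along the component to 0.30 in wildtype 1, the 3-gene mean reaches -0.30 there, and Glul spans -0.48 in knockout 1 to 0.37 in knockout 4.

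The mean over the 10 genes, as log2 level minus the mean over arrays, ran from -0.044 to 0.0268 in knockouts and from -0.10 to 0.11 in wildtype mice. Over all 8 arrays it spanned 0.208 log2 units. The 5 genes whose pattern was most like that mean over the 8 arrays were Dut (r = 0.99), Frmpd3 (0.99), Coq7 (0.98), Smarcal1 (0.98) and Ppp1r12a (0.98). They were the highest of a search through the named probe sets above the median level, so these r carry no test. Single genes differed in how many other probe sets followed them at r of 0.9 or more. Of the 20984 others, Slc1a2 had 631 (3.01%), Gjb6 182 (0.867%), Aqp4 68 (0.324%), Aldoc 35 (0.167%) and Glul 25 (0.119%).

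No relative of the uptake transporters passed the test. Slc1a1, the glutamate transporter of neurons, read 10.59, 10.66, 10.61 and 10.48 in knockouts and 10.58, 10.56, 10.63 and 10.53 in wildtype mice, a difference of 0.01 ± 0.0678 (SE). Slc1a4 (-0.015), Slc1a5 (-0.035), Slc1a6 (0.005) and Slc1a7 (0.14, 95% interval -0.0268 to 0.30) had limma adjusted p of 0.997. Of 18 measured genes that handle glutamate and glutamine, 11 were positive and 7 negative, 0 passed over all probe sets and 0 had an unadjusted p under 0.05, with a median difference of 0.0138 (0.0446 without wildtype 1). Among them Slc17a6, a vesicular glutamate transporter of thalamus and other regions next to the hippocampus, had the widest scatter, from 7.47 to 8.86 in knockouts and from 7.34 to 9.17 in wildtype mice, where wildtype 1 was the highest. In 7 genes of GABA and glycine uptake 0 passed and 0 had an unadjusted p under 0.05 (median 0.0225), and likewise 0 of 9 other gap junction genes (median 0.0225).

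Other astrocyte markers numbered 45, with 17 positive, 28 negative and 0 past the test over all probe sets. Their median difference was -0.055, or 0.0175 without wildtype 1. As log2 level minus the mean over arrays, the mean of these markers was 0.24 in wildtype 1. It was -0.0606 to -0.0081 in the knockouts and -0.0703 to -0.0157 in the other wildtype mice. Those at an unadjusted p under 0.05 were 3 of 45 (6.67%, against 3.16% of all probe sets). Hepacam, a cell adhesion protein of astrocyte endfeet, read 9.26, 9.33, 9.23 and 9.34 in knockouts and 9.09, 8.97, 9.14 and 9.09 in wildtype mice. Its groups did not overlap, as for 2.16% of all probe sets, and the difference was 0.22 ± 0.0684 (SE; limma adjusted p = 0.997). Slco1c1, a thyroid hormone transporter, differed by 0.17 ± 0.073, and Prodh, the mitochondrial proline oxidase, by -0.31 ± 0.119 (SE), or -0.18 without wildtype 1. Of 16 genes for endfoot water and ion handling, 5 were positive and 11 negative (median -0.0825, or -0.0171 without wildtype 1), and Hepacam alone had an unadjusted p under 0.05.

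Reactive astrocyte genes were split, 17 positive and 16 negative of 33 measured, with 0 past the test over all probe sets and a median of 0.0125 (-0.0425 without wildtype 1). At an unadjusted p under 0.05 were 3 of the 33 (9.09%, against 3.16% of all probe sets), each with a limma adjusted p of 0.997. Amigo2, an adhesion protein, differed by -0.28 ± 0.0954 (SE), Fkbp5, a glucocorticoid-induced co-chaperone, by -0.31 ± 0.110, and S100a10, a partner of annexin, by 0.27 ± 0.0996. Vim, the filament partner of Gfap in reactive astrocytes, read 9.02, 9.20, 9.07 and 8.96 in knockouts and 9.87, 9.13, 9.41 and 8.96 in wildtype mice, with wildtype 1 the highest. Among 20 regulators of astrocyte fate, 11 were positive, 9 negative and 0 past the test over all probe sets. Notch1, the receptor that keeps neural stem cells and promotes glial fate, read 8.35, 8.46, 8.40 and 8.15 in knockouts and 8.78, 8.57, 8.68 and 8.58 in wildtype mice. Every knockout lay below every wildtype mouse, as for 1.19% of all probe sets, with a difference of -0.31 ± 0.0866 (SE; limma adjusted p = 0.997). Notch1 alone of the 20 had an unadjusted p under 0.05 (5%, against 3.16% of all probe sets). Genes related by family to the 10 (21 measured) had 0 past the test. At an unadjusted p under 0.05 were 4 (19.0%, against 3.16% of all probe sets), led by S100a1 at 0.36 ± 0.10 and S100a13 at 0.21 ± 0.0647 (SE). All lists were chosen with earlier results of these data known, and this one holds only part of the S100 family. Such shares are therefore no test.

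Markers of other hippocampal cells give the setting for the astrocyte genes. No gene of these lists passed over all probe sets. The 12 oligodendrocyte markers had a median of 0.12 (0.17 without wildtype 1), with 9 positive and 3 negative. Their count at an unadjusted p under 0.05 was 4 (33.3%, against 3.16% of all probe sets), among them Ugt8a (0.30 ± 0.0934), Fa2h (0.22 ± 0.0826) and Ermn (0.20 ± 0.0897, SE). The mean over these markers, as log2 level minus the mean over arrays, ran from -0.0467 to 0.17 in knockouts and from -0.15 to 0.0967 in wildtype mice. The means of the lists below are given in the same way. All 10 dentate granule neuron markers were negative, as were 51.7% of all probe sets, with a median of -0.15 (-0.13 without wildtype 1). The desmosome gene Dsp led at -0.38 ± 0.107 (SE), and the means ran from -0.17 to 0.039 in knockouts and -0.069 to 0.14 in wildtype mice. No test was made of these signs. The medians were -0.0975 for 11 endothelial genes (-0.0092 without wildtype 1), with Slc2a1, the glucose transporter of vessels, at -0.47 ± 0.112 and Esam at -0.26 ± 0.0935. Microglia had a median of 0.0725 over 11 genes and Ctss 0.33 ± 0.144 (SE), or 0.0233 and 0.22 without wildtype 1. The 12 genes of choroid plexus and ependyma had a median of -0.10, with Steap1 at -0.17 ± 0.0746 (SE). Wildtype 2 stood apart on this list, with a mean of 0.51 against -0.21 to 0.0358 in knockouts and -0.11 to -0.0283 in the other wildtype mice. Ttr, the transthyretin of choroid plexus, read 12.43 there against at most 10.16 on the other arrays, and wildtype 2 was also the highest for Steap1. Without wildtype 2, a setting chosen after seeing the data, the median was -0.0254 and Steap1 differed by -0.12. Medians were 0.0175 for 15 neuron markers (0.0358 without wildtype 1) and -0.0238 for 8 markers of oligodendrocyte precursors (0.0388 without wildtype 1). Their part in the values of the 10 genes was not tested.

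**Figure D5:**
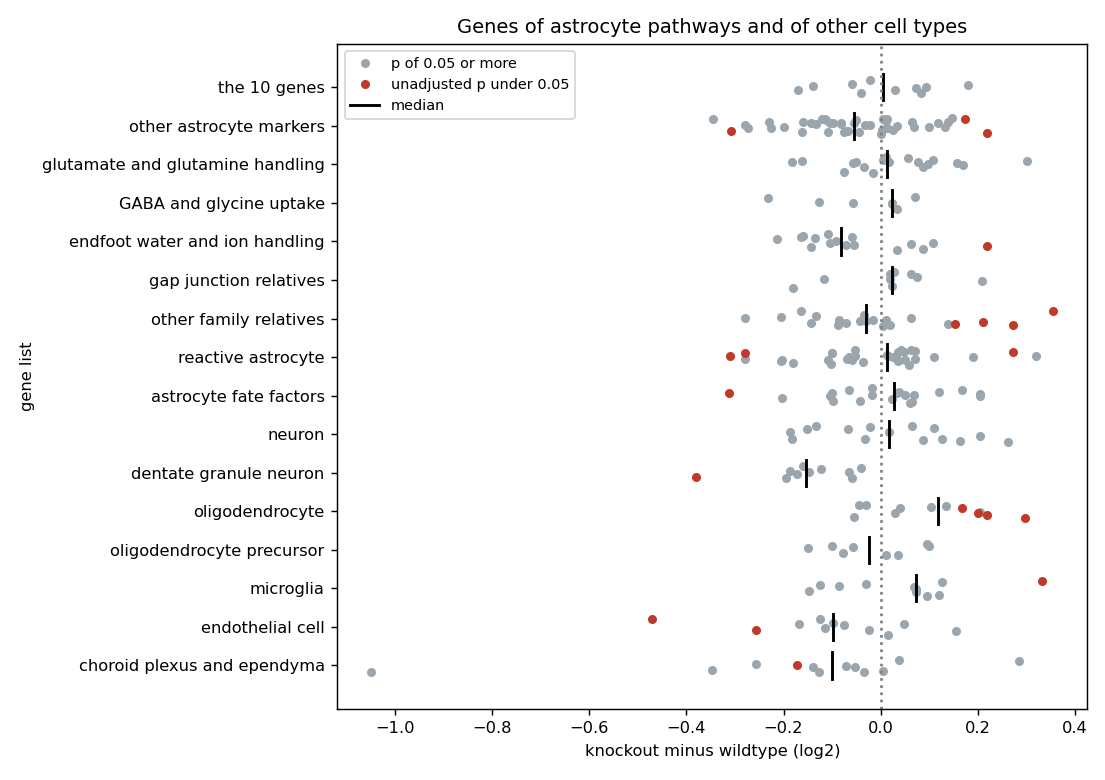
Knockout minus wildtype in log2 units (horizontal axis) for each measured gene of the 10 and of 15 further lists (rows). Red points have an unadjusted limma p under 0.05, grey points do not, and black lines mark medians. The 10 genes lie between -0.17 and 0.18 around a median of 0.00375 and none is red.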

How the data were processed

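Biotinylated DNA from hippocampal total RNA was hybridised to Affymetrix arrays, per the labels' protocols. What the authors deposited is 1 log2 level for each probe set on each array. R 2.9, RMA (background subtraction, quantile normalization and probe summary) and limma are named, per the submitters' processing notes; the sources used here do not give their order, their settings, the build or the probe set definition. Interquartile ranges differ between arrays, and detection calls were not analysed. The number of arrays, 8, limits the precision.

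Groups follow the titles, and replicate numbers follow record order and pair nothing. The platform annotation named 19921 of 20985 probe sets with 1 gene each. Of 260 distinct listed names 245 were measured, and the rest are not analysed here. All probe sets were fitted with limma 3.58.1 in R 4.3.3 (lmFit, eBayes, two-sided, Benjamini-Hochberg, threshold 0.05), which was tested on simulated data. The simulated noise was independent between probe sets, so that test did not cover the variation that probe sets share on these arrays. Pairs of the 10 genes were correlated over arrays with exact permutation. The 10 genes and the lists were chosen with earlier results of these data known. Named by rule were the 10, Kcnh1, up to 3 genes per list with the smallest unadjusted p under 0.05, and the 5 genes most like the mean of the 10. Slc1a1 and its relatives, Slc17a6, Vim and single pairs were named after their values were seen. Promoter windows came from RefSeq, GRCm38.p6, with 9 of 10 genes matched.

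Alternatives were array weights, robust fitting, an intensity trend, centring on medians, another quantile normalization, leaving out dim probe sets, the run of mouse numbers as a block, the first principal component as a covariate, and each mouse or both outlying arrays left out.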

Additional observations from a re-analysis of the deposited data

Results flagged for a closer look

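Of the 28 genes named by rule and tested in each genotype (56 groups of 4 mice), 1 group had a mouse far from the others, fewer than the 1 in 20 that chance flags. Amigo2 read 8.68 in knockout 3, while the other knockouts read 8.49 to 8.52, a gap of 0.842 of the range of the group.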

How the results depend on the processing

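Under 18 alternative fits, 0 of the 10 genes and 0 genes of the other lists passed an adjusted p of 0.05, and the median difference of the 10 ran from -0.0358 (without wildtype 4) to 0.035 (without knockout 2). Over all probe sets 1 passed, with array weights, repeated quantile normalization or the first component as a covariate 2 (Tatdn3 besides Kcnh1), and 1 without any single mouse. No paired analysis was possible because the labels carry no shared replicate numbers. Gfap, Aqp4 and Aldh1l1 kept their sign throughout. Signs turned with array weights (Slc1a2 0.0175, Gjb6 -0.0823), with mouse number run as a block (Slc1a2 0.01, Gja1 -0.0233, Gjb6 -0.015, Aldoc 0.03), with the first component as a covariate (Gjb6 -0.00616), and without both outlying arrays (Glul 0.20). An unadjusted p under 0.05 was reached by 1 of the 10 without wildtype 3 (Aqp4, 0.25) and by 1 under the component covariate (Slc1a3, 0.17). Leaving out single mice gave ranges of -0.245 to -0.045 for Gfap, 0.0875 to 0.25 for Aqp4, -0.23 to -0.0242 for Aldh1l1, 0.0058 to 0.0692 for Gja1, -0.105 to 0.0183 for Slc1a2, -0.0117 to 0.20 for Slc1a3, -0.0692 to 0.16 for Gjb6, -0.15 to 0.13 for Glul, -0.045 to 0.25 for S100b and -0.0942 to 0.0242 for Aldoc. Pairs with r of 0.7 in size numbered 13 and ran from 12 to 19 without single mice; Spearman gave 8 and the first component regressed out, an alternative chosen after seeing the data, 3. Median r within the 6 genes was 0.56 with Spearman, 0.71 with genotype means subtracted, 0.48 with quantile normalization, 0.50 without both arrays, 0.53 with the run regressed out, -0.0596 with the component regressed out and 0.52 to 0.71 without single mice. Within Gja1, Gjb6 and Aqp4 it was 0.19 with Spearman, -0.0541 without both arrays, -0.23 with the component regressed out and -0.10 to 0.73 without single mice. Between the sets it was -0.52 with Spearman, -0.19 without both arrays, -0.47 with the run regressed out, 0.0084 with the component regressed out and -0.72 to -0.34 without single mice. Causes were not tested. Counts of genes above the upper quartile (8) were the same in 11 alternatives, and those above the median SD ran from 7 to 9.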

Other observations

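S100b belongs to a family whose other members mostly lie together on chromosome 3. Of the 14 measured S100 genes there, 0 passed over all probe sets by limma and 3 had an unadjusted p under 0.05 (3.16% of all probe sets did), all 3 higher in knockouts. S100a1, a calcium sensor of muscle and nerve cells, read 8.19, 8.24, 8.29 and 8.56 in knockouts and 7.84, 8.00, 7.88 and 8.14 in wildtype mice. S100a13 read 7.72, 7.72, 7.75 and 7.82 in knockouts and 7.47, 7.58, 7.56 and 7.56 in wildtype mice. Both had groups that did not overlap, as 2.16% of all probe sets do. S100a10 read 9.56, 9.49, 9.20 and 9.57 in knockouts, against 9.22, 9.21, 9.29 and 9.01 in wildtype mice, with an overlap at knockout 3. The other 11 genes on the chromosome differed by -0.29 to 0.095, so the median of the 14 was 0.0138. The family as a whole was looked at after these values were seen.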
